A study of Homo sapiens with 14 samples.

Results

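The genes described here are 10 markers and regulators of the epithelial and mesenchymal state of a cell: CDH1, EPCAM, CDH2, VIM, FN1, ZEB1, ZEB2, SNAI1, SNAI2 and TWIST1. They were picked by symbol, with earlier results of these data known, and all 10 were found among the 23106 genes counted in the libraries. The data are polyA RNA-seq libraries of 2 human cancer cell lines held for 16 h at 21% O2 (normoxia) or 0.5% O2 (hypoxia). PC3 is a prostate cancer line, grown in DMEM/Ham's F12, with 4 replicates per condition, and HCT116 is a colorectal cancer line, grown in McCoy's 5a, with 3 replicates per condition. Both media held 10% fetal bovine serum, and no label names a genetic change in either line. Tissue, line and medium cannot be told apart in any comparison of PC3 with HCT116.

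Epithelial cells are held together by adherens junctions, in which E-cadherin, the product of CDH1, binds the same protein on the neighbouring cell and is tied to actin through the catenins. In the epithelial-mesenchymal transition, transcription factors of the ZEB, SNAIL and TWIST families repress CDH1 by binding E-boxes, while N-cadherin (CDH2), the intermediate filament vimentin (VIM) and the matrix protein fibronectin (FN1) are gained. Low oxygen is widely studied as a trigger of this transition in carcinoma. Cell lines can also hold both sets of markers at once, a state usually called hybrid or partial.

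Total counts lay between 98021966 and 123935458 in normoxic PC3 libraries and between 71228454 and 96159803 in hypoxic ones, while HCT116 libraries held 133067391 to 150630928. Expression is given as CPM (counts scaled to the library size) after scaling by the trimmed mean of M-values (TMM), so values are relative to the bulk of transcripts. A gene with 3 counts would stand at 0.0201 to 0.0447 CPM, and this floor covers counting error only. Of 8 prostate markers, PC3 held 4 at a mean of 1 CPM or more (HOXB13, TMPRSS2 and STEAP2 among them), while KLK3 had no count. Of 8 colon markers, normoxic HCT116 held only CDX2 and KRT20 at that level, and CDX1 had no count. Summed levels of 6 fibroblast markers ranged from 7.31 to 13.5 CPM in PC3 and from 8.49 to 12.5 in HCT116, most of it COL1A1, with DCN at a mean of 0.00608 CPM or less. Summed levels of 4 endothelial markers reached at most 4.54 CPM and those of 4 leukocyte markers at most 1.02 CPM, both in PC3. A pair of features of the PC3 libraries touch the results below. Both libraries of replicate 1 stood apart on the second principal component of PC3, and hypoxia replicate 4 lay at the end of the first (score -51.9). In bulk RNA, a smaller share of cells that express a gene and less RNA per cell cannot be told apart.

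Promoter windows, from 250 bases before to 50 after a transcript start, were found for 5 of the 10 genes in RefSeq on GRCh38.p14 (CDH2, FN1, VIM, ZEB1 and ZEB2). They were searched on both strands for the ACGTG form (reverse CACGT) of the core of the hypoxia response element, called the hypoxia core below. The E-box CACCTG (reverse CAGGTG) that ZEB and SNAIL proteins bind was searched as well. Other forms of either motif were not searched, so a window without a match may still hold them. Of all 35116 windows in the table, 21.4% held the first motif and 20.6% the second. Windows are shown for VIM and FN1, which belong to the mesenchymal arm, and for the start of ZEB1 with the most E-boxes. Capitals mark the matches. The VIM window (chr10:17227991-17228290, plus strand) held 1 hypoxia core, the FN1 window (chr2:215436019-215436318, minus strand) held neither motif, and the ZEB1 window (chr10:31318966-31319265, plus strand) held 3 E-boxes.
VIM: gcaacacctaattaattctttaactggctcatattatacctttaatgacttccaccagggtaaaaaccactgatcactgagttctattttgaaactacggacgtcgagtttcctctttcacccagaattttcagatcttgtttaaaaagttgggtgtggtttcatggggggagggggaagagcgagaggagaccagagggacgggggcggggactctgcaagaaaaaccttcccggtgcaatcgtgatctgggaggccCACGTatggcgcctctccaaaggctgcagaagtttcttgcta
FN1: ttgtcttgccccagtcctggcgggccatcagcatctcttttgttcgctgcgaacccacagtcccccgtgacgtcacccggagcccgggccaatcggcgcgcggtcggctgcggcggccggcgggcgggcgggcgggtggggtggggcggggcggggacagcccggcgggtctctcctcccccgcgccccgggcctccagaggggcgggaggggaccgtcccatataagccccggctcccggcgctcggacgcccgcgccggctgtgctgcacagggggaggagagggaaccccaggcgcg
ZEB1: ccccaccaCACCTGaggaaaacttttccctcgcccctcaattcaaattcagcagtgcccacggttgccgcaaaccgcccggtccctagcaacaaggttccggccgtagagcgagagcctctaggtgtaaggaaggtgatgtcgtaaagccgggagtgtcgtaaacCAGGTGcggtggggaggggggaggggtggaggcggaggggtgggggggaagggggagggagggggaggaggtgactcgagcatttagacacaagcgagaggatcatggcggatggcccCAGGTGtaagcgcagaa
Across the 7 windows of ZEB1, 1 held a hypoxia core and 2 held an E-box, the single ZEB2 window held a hypoxia core, and neither CDH2 window held either motif. A match says only that these letters are present.

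The first comparison asked in which state each line stood before hypoxia. In normoxia PC3 carried epithelial and mesenchymal transcripts together, whereas HCT116 carried EPCAM, a moderate level of CDH1 and little of CDH2, VIM and FN1. Bulk RNA does not show whether the same PC3 cells carried both sets. Of the 10 genes, 9 were higher in PC3 and 1, SNAI1, was higher in HCT116, all with an adjusted p under 0.05 (edgeR quasi-likelihood test, Benjamini-Hochberg over all genes). This test separated the lines at most genes, with 83.4% of 15206 called (42.9% higher and 40.5% lower in PC3), so the count of 10 by itself is not particular to these markers. CDH2 and ZEB2 passed the filter on low counts through their PC3 level alone, and so had to differ. The sizes of the differences are given gene by gene below.

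**Figure D1:**
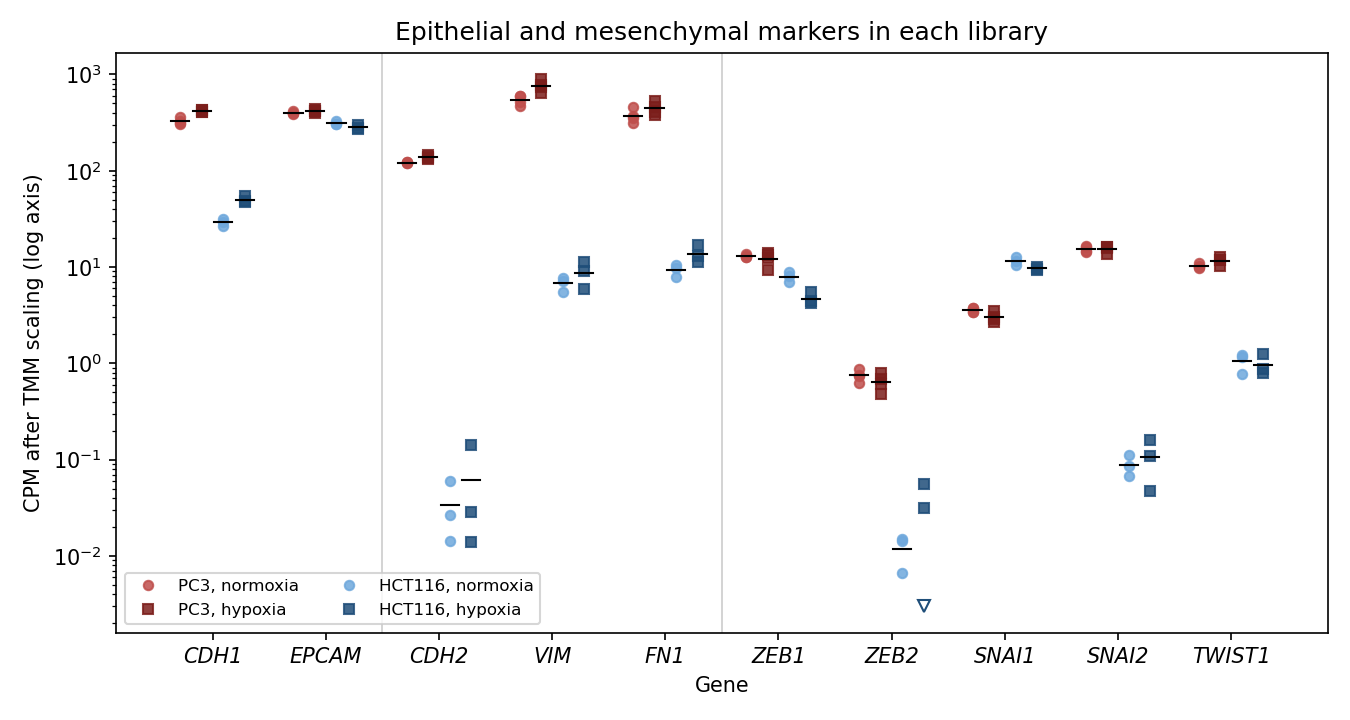
CPM of each of the 10 genes in each of the 14 libraries on a log axis, with lines at the group means; vertical rules part the epithelial adhesion genes, the mesenchymal genes and the transcription factors, and the open triangle stands for a library with 0 counts (no mean is drawn for that group). EPCAM sits near the same height in all 4 groups, CDH2, VIM, FN1, ZEB2, SNAI2 and TWIST1 sit higher in PC3, and SNAI1 sits higher in HCT116.

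CDH1 (chromosome 16, 68771195 to 68869440 on GRCh37, plus strand) encodes E-cadherin. In normoxia it stood at 362, 309, 326 and 316 CPM in the 4 PC3 libraries and at 31.6, 29.4 and 26.8 CPM in the 3 HCT116 libraries. The lines did not overlap, and CDH1 was 11.1-fold higher in PC3 (log2 difference 3.47, SE 0.09, adjusted p = 1.39e-09). PC3, the line with more of the mesenchymal transcripts, thus also held more of the E-cadherin transcript. EPCAM (chromosome 2, 47572297 to 47614740, plus strand) encodes an epithelial surface adhesion molecule, and its levels were 393, 399, 418 and 398 CPM in PC3 against 331, 306 and 309 CPM in HCT116. This was the closest of the 10 genes between the lines on the log2 scale, at 0.33 (SE 0.06, adjusted p = 4.35e-04), with no overlap.

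CDH2 (chromosome 18, 25512843 to 25757910, minus strand), which encodes N-cadherin, stood at 122, 123, 121 and 119 CPM in PC3. In HCT116 the normoxic libraries held 4, 2 and 8 counts of it, at or near the floor. Summed over libraries, its CPM in PC3 was 3671 times that in HCT116, with a 95% counting interval of 2188 to 6716. VIM (chromosome 10, 17270240 to 17279592, plus strand) stood at 473, 599, 602 and 522 CPM in PC3 and at 5.48, 7.22 and 7.64 CPM in HCT116, a 79.9-fold difference (log2 6.32, SE 0.16, adjusted p = 1.00e-09). FN1 (chromosome 2, 216225163 to 216300796, minus strand) stood at 351, 371, 315 and 460 CPM in PC3 and at 7.83, 9.85 and 10.6 CPM in HCT116, a 39.2-fold difference (log2 5.29, SE 0.17, adjusted p = 3.65e-09). None of the 3 mesenchymal genes came near to overlap between the lines, and all 3 were present together with high CDH1 in every PC3 library.

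Among the transcription factors the lines differed in kind as well as in amount. SNAI2 (chromosome 8, 49830157 to 49834299, minus strand), which encodes the repressor SLUG, stood at 16.4, 16.0, 14.3 and 14.7 CPM in PC3, and HCT116 held only 10, 12 and 15 counts. The summed ratio was 177, with a counting interval of 128 to 251. TWIST1 (chromosome 7, 19060614 to 19157259, minus strand) was 9.82 to 11.1 CPM in PC3 and 0.777 to 1.21 CPM in HCT116, a 9.71-fold difference (log2 3.28, SE 0.16, adjusted p = 4.80e-08). SNAI1 (chromosome 20, 48599517 to 48605423, plus strand), which encodes the repressor SNAIL, went the other way. It was 3.44, 3.72, 3.40 and 3.75 CPM in PC3 against 12.7, 11.5 and 10.6 CPM in HCT116 (log2 difference -1.72, SE 0.09, adjusted p = 9.91e-08).

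ZEB1 and ZEB2, zinc-finger repressors of CDH1, were set apart from each other. ZEB1 (chromosome 10, 31607424 to 31818742, plus strand) stood at 12.6, 13.5, 12.7 and 13.1 CPM in PC3 and at 6.91, 8.86 and 8.15 CPM in HCT116, a difference of 1.60-fold (log2 0.68, SE 0.09, adjusted p = 8.91e-05). ZEB2 (chromosome 2, 145121931 to 145278624, minus strand) was low in both lines, with 89, 99, 64 and 105 counts in PC3 and 1, 2 and 2 in HCT116, where it was at or under the floor. The summed ratio of CPM was 64.0, with a counting interval of 27.2 to 198. All calls of the 10 genes between the lines held under every alternative and with any 1 library left out.

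Levels of different genes can be set side by side only per length, here as CPM per kb of all annotated exons. In normoxic PC3 the order was EPCAM (165), VIM (106), CDH1 (54.1), FN1 (21.7), CDH2 (14.1), TWIST1 (5.17), SNAI2 (4.68), SNAI1 (2.10), ZEB1 (1.5) and ZEB2 (0.0286). TWIST1 and SNAI2 overlapped between libraries, and no other neighbours did. In normoxic HCT116 the order was EPCAM (130), SNAI1 (6.81), CDH1 (4.82), VIM (1.31), ZEB1 (0.922), FN1 (0.547), TWIST1 (0.526), SNAI2 (0.0268), CDH2 (0.00391) and ZEB2 (0.000456). FN1 and TWIST1 overlapped there. SNAI1 was above CDH1 on this scale in HCT116, and far below it in PC3. With the length of the canonical transcript in place of all exons, EPCAM and VIM were close in PC3, at 260 (SD 7.22) and 255 (SD 29.2). There SNAI2 passed TWIST1 (7.04 against 6.33). ZEB1 narrowly passed SNAI1, at 2.18 (SD 0.0694) against 2.10 (SD 0.107). The HCT116 order was kept, with SNAI1 and CDH1 (6.81 against 6.08) overlapping between libraries.

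**Figure D2:**
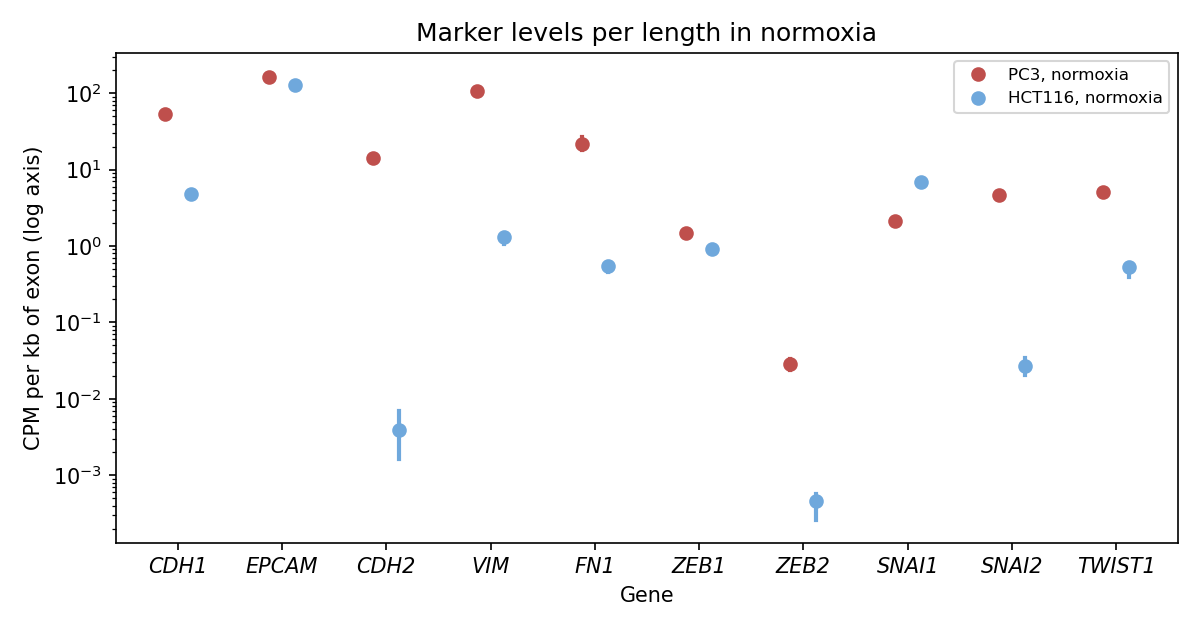
Mean CPM per kb of exon in normoxia on a log axis, with bars for the lowest and highest library (4 PC3, 3 HCT116). With all annotated exons as the length, EPCAM leads in both lines at 165 and 130, while SNAI1 is second in HCT116 (6.81) and eighth in PC3 (2.10).

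The second comparison asked how the markers shifted after 16 h of hypoxia in PC3. CDH1 and VIM rose, an epithelial and a mesenchymal marker together, and none of the 10 genes fell past the threshold. The count was 2 higher and 0 lower of 10 tested, against 11.3% of 14309 genes called (6.03% higher and 5.29% lower). For the lower direction, no marker had an unadjusted p under 0.05 and DESeq2 called none. The median log2 fold change was 0.12 over the 10 genes and 0.00 over all genes tested.

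CDH1 in PC3 went from 362, 309, 326 and 316 CPM in normoxia to 425, 407, 403 and 428 CPM in hypoxia. Every hypoxic library lay above every normoxic one, and the rise was 1.27-fold (log2 0.34, SE 0.08, adjusted p = 0.0206). Within the 4 pairs of the same replicate number the log2 differences were 0.23, 0.40, 0.31 and 0.44. EPCAM, by contrast, stood at 395, 413, 421 and 440 CPM in hypoxia, overlapping its normoxic values. Its log2 fold change was 0.06 (95% interval -0.08 to 0.20, adjusted p = 0.588).

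VIM in PC3 went from 473, 599, 602 and 522 CPM to 645, 772, 746 and 890 CPM. The conditions did not overlap, and the rise was 1.39-fold (log2 0.48, SE 0.11, adjusted p = 0.0247), with the 4 pairs at 0.45, 0.37, 0.31 and 0.77. The largest of these pair differences came from hypoxia replicate 4. CDH2 went from 122, 123, 121 and 119 CPM to 137, 133, 139 and 147 CPM, without overlap but short of the threshold (log2 0.20, SE 0.06, adjusted p = 0.0552), while DESeq2 placed it past (adjusted p = 0.00594). FN1 went from 351, 371, 315 and 460 CPM to 406, 456, 379 and 534 CPM. Its groups overlapped, since FN1 differed widely between replicates of a condition, and its log2 fold change was 0.25 (SE 0.13, adjusted p = 0.26). Within pairs, however, FN1 was higher in hypoxia by 0.21, 0.30, 0.26 and 0.22 on the log2 scale.

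Each PC3 library went best with the library of its own replicate number, though only barely for hypoxia replicate 3. With the number as a block 4 of the 10 genes were higher, where 28.5% of all genes were called (14.9% higher and 13.6% lower). CDH2 (adjusted p = 0.0265) and FN1 (adjusted p = 0.00818) joined CDH1 (0.00475) and VIM (0.00729). Without the block, leaving out 1 library could end either call. CDH1 lost its call without normoxia replicate 2 (adjusted p = 0.0829), hypoxia replicate 2 (0.0539), normoxia replicate 3 (0.0768) or normoxia replicate 4 (0.0639), with log2 fold changes of 0.31 to 0.40 throughout. VIM lost it without normoxia replicate 2 (0.0575), hypoxia replicate 2 (0.0694), normoxia replicate 3 (0.056), hypoxia replicate 3 (0.0507) or normoxia replicate 4 (0.0736). With both libraries of replicate 1 left out, CDH1 (log2 0.38, adjusted p = 0.0109) and VIM (0.49, 0.0197) were still called. CDH2 passed the threshold in 1 of 8 fits with 1 library left out, without hypoxia replicate 4 (adjusted p = 0.0366).

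No transcription factor of the 5 changed past the threshold in PC3, and none had an unadjusted p under 0.05 or was called by DESeq2 or with the block. ZEB1 stood at 12.4, 13.9, 13.4 and 9.27 CPM in hypoxia against 12.6 to 13.5 CPM in normoxia. Its 1 low value was hypoxia replicate 4, and the log2 fold change of -0.08 (95% interval -0.34 to 0.19) was 0.04 without that library. SNAI1 went from 3.44, 3.72, 3.40 and 3.75 CPM to 2.88, 3.01, 2.66 and 3.52 CPM, overlapping between conditions (log2 -0.24, 95% interval -0.51 to 0.02, adjusted p = 0.218), and it was lower in hypoxia in all 4 pairs. SNAI2 (log2 0.01, interval -0.18 to 0.20), TWIST1 (0.17, interval -0.01 to 0.36) and ZEB2 (-0.22, interval -0.69 to 0.25) overlapped as well. ZEB2 rested on 46 to 62 counts per hypoxic library.

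The same comparison in HCT116 gave a larger rise of CDH1, a rise of FN1 from its low level, and a fall of ZEB1. The count was 2 higher and 1 lower of 8 tested, against 25.9% of 14120 genes called (14.6% higher and 11.3% lower), and CDH2 and ZEB2 had too few counts to be tested. The median log2 fold change was 0.10 over the 8 genes and 0.00 over all genes.

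CDH1 in HCT116 went from 31.6, 29.4 and 26.8 CPM to 48.2, 55.0 and 47.5 CPM. The conditions were well apart, and the rise was 1.74-fold (log2 0.80, SE 0.08, adjusted p = 5.59e-05). It was called with any 1 library left out, at log2 0.73 to 0.84. Even in hypoxia, HCT116 stayed far below the PC3 range of CDH1. EPCAM went from 331, 306 and 309 CPM to 299, 276 and 273 CPM, with every hypoxic library below every normoxic one. The difference, log2 -0.14 (95% interval -0.29 to 0.01), did not pass the threshold (adjusted p = 0.145).

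ZEB1 in HCT116 went from 6.91, 8.86 and 8.15 CPM to 4.22, 5.48 and 4.43 CPM. There was no overlap, and it was lower in hypoxia with a ratio of 0.598 (log2 -0.74, SE 0.13, adjusted p = 0.00193), a call that held with any 1 library left out. SNAI1, the factor of the 5 with the highest level per length in this line, went from 12.7, 11.5 and 10.6 CPM to 10.1, 9.37 and 9.64 CPM. It did not overlap either but stayed short of the threshold (log2 -0.24, SE 0.09, adjusted p = 0.0585). DESeq2 (adjusted p = 0.0391), median-of-ratios scaling (0.0496) and total-count scaling (0.0128) placed it past the threshold. With 1 library left out it passed in 1 of 6 fits, without normoxia replicate 3 (0.028), and the adjusted p reached 0.201. TWIST1 was 0.777, 1.16 and 1.21 CPM in normoxia and 0.797, 1.24 and 0.866 CPM in hypoxia, with full overlap (log2 -0.10, interval -0.62 to 0.42). SNAI2 had 10, 12 and 15 counts against 23, 15 and 6, too few to show a difference of its size (log2 0.30, interval -0.87 to 1.46).

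FN1 in HCT116 went from 7.83, 9.85 and 10.6 CPM to 11.4, 12.9 and 17.0 CPM. The groups did not overlap, and the rise was 1.48-fold (log2 0.56, SE 0.14, adjusted p = 0.0156). Hypoxia replicate 3 held the highest value, and without it the log2 fold change was 0.39 and the call was lost (adjusted p = 0.0675). VIM went from 5.48, 7.22 and 7.64 CPM to 5.94, 9.04 and 11.2 CPM, overlapping between conditions (log2 0.38, interval -0.05 to 0.80, adjusted p = 0.174). With 1 library left out, it passed the threshold only without hypoxia replicate 1 (log2 0.59, adjusted p = 0.0232). CDH2 stayed low, with 4, 2 and 8 counts in normoxia and 2, 4 and 18 in hypoxia, the last (0.142 CPM) above the floor, and ZEB2 had 1, 2 and 2 counts against 8, 0 and 4. The 0 counts allow a level of up to 0.0216 CPM in that library.

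**Figure D3:**
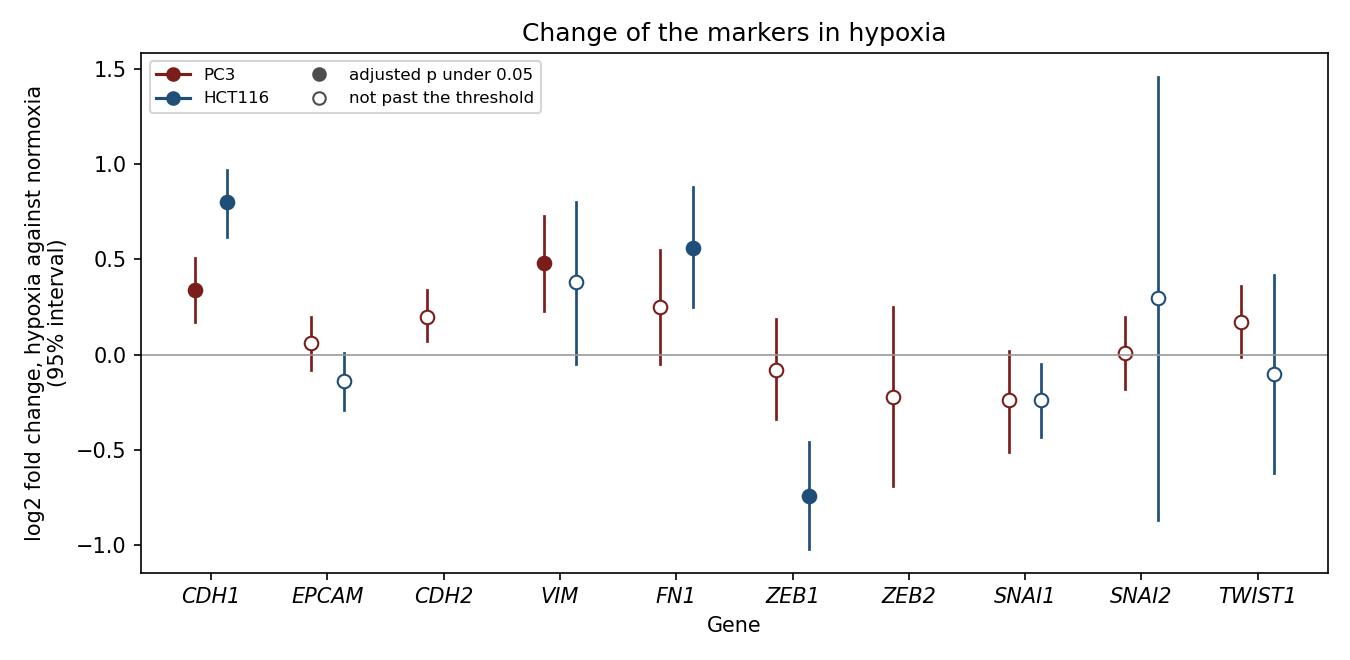
Log2 fold change of each gene in hypoxia against normoxia with its 95% interval from the edgeR fit, PC3 (8 libraries) and HCT116 (6 libraries), filled where the adjusted p was under 0.05; CDH2 and ZEB2 were not tested in HCT116. CDH1 is above 0 in both lines at 0.34 and 0.80, VIM is filled in PC3 only, and FN1 and ZEB1 are filled in HCT116 only.

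The next comparison asked whether the shift of a marker differed between the lines, as the interaction of line and oxygen over all 14 libraries. It shares its libraries with the comparisons above. None of the 10 genes passed the threshold by edgeR's quasi-likelihood test, where 2.32% of 15493 genes were called (1.01% higher and 1.31% lower in PC3). At an unadjusted p under 0.05 there were 2 higher and 1 lower, and DESeq2 called 1 in each direction. CDH1 came closest, with a response smaller in PC3 than in HCT116 by 0.44 (log2 difference -0.44, SE 0.11, adjusted p = 0.0546, DESeq2 0.0127). ZEB1 differed by 0.68 in the other direction (SE 0.19, adjusted p = 0.0828, DESeq2 0.0127). Without PC3 hypoxia replicate 4, the library in which ZEB1 was low, both passed (adjusted p = 0.0377 for CDH1 and 0.0105 for ZEB1). Each passed in only this 1 of 14 fits with 1 library left out, and the adjusted p reached 0.18 and 0.202 in others. EPCAM was the other gene with an unadjusted p under 0.05, at 0.21 (interval 0.02 to 0.41, adjusted p = 0.267). For VIM the interval of the difference was -0.42 to 0.65, and for FN1 it was -0.79 to 0.18. That VIM passed in PC3 and FN1 in HCT116 therefore does not show that either responded differently in the other line. For SNAI1 the interval was -0.31 to 0.33, and for TWIST1 (0.28) it was -0.21 to 0.77. CDH2 (-0.62, interval -2.05 to 0.81), ZEB2 (-1.46, interval -3.37 to 0.45) and SNAI2 (-0.28, interval -1.05 to 0.48) rested on few HCT116 counts, and their intervals were wide. With the replicate number as a block, CDH1 (adjusted p = 0.0164) and ZEB1 (0.017) passed, 1 marker lower and 1 higher, where 8.43% of all genes were called (3.85% higher and 4.58% lower), although the HCT116 numbers were not shown to pair the libraries.

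**Figure D4:**
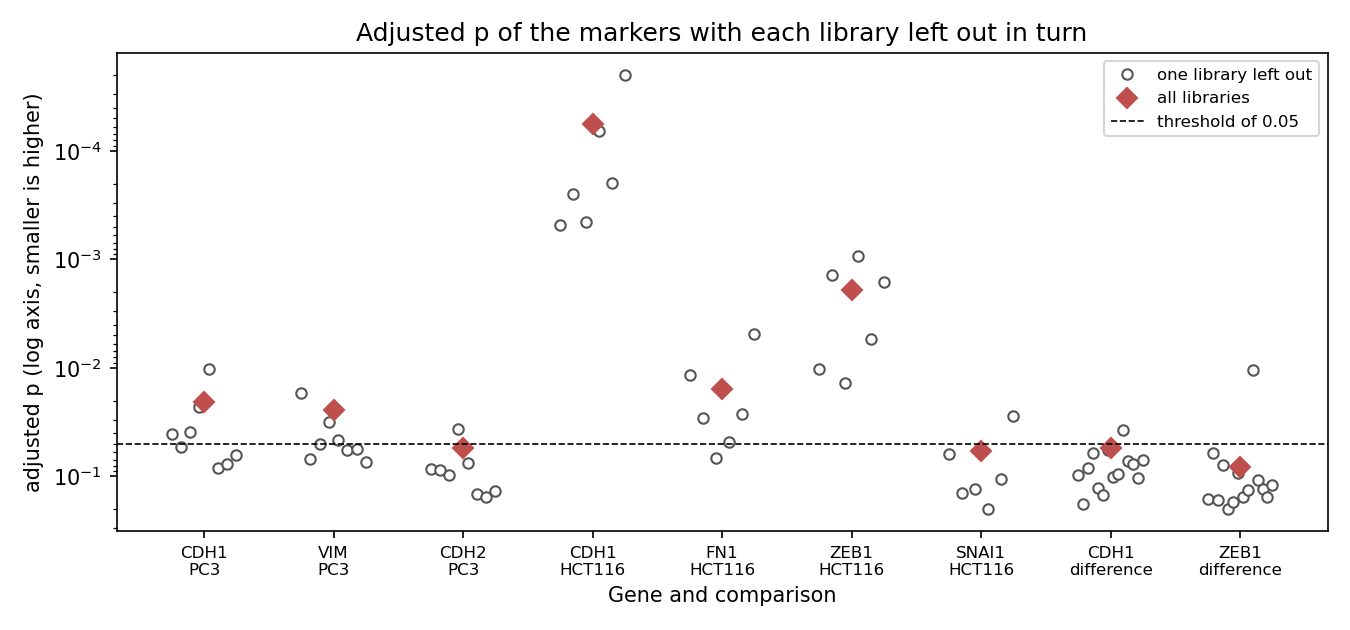
Adjusted p on a reversed log axis for the genes at or near the threshold of 0.05 (dashed line), with all libraries (diamonds) and with each library left out in turn (open circles). CDH1 and ZEB1 in HCT116 stay past the threshold throughout, while CDH1 and VIM in PC3 fall on both sides of it.

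Ratios of counts within a library do not depend on scaling between libraries. They were not corrected for length and are compared only between libraries. The ratio of ZEB1 to CDH1 was 34.7 to 43.5 ZEB1 counts per 1000 CDH1 counts in normoxic PC3 and 21.7 to 34.2 in hypoxic PC3. In HCT116 it was 219 to 304 in normoxia and 87.5 to 99.6 in hypoxia. The conditions did not overlap in either line, and HCT116 held more ZEB1 per CDH1 than PC3 in both conditions. The lowest PC3 ratio, 21.7, again came from hypoxia replicate 4. The ratio of VIM to CDH1 overlapped between conditions in both lines, at 130 to 194 VIM counts per 100 CDH1 counts in normoxia and 152 to 208 in hypoxia in PC3, and at 17.4 to 28.5 and 12.3 to 23.6 in HCT116. Likewise FN1 per 100 CDH1 was 96.8 to 145 in normoxia and 93.9 to 125 in hypoxia in PC3, and 24.8 to 39.5 and 23.5 to 35.8 in HCT116. Within PC3 pairs of the same replicate number FN1 per CDH1 was lower in hypoxia in all 4. None of these ratios was tested.

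**Figure D5:**
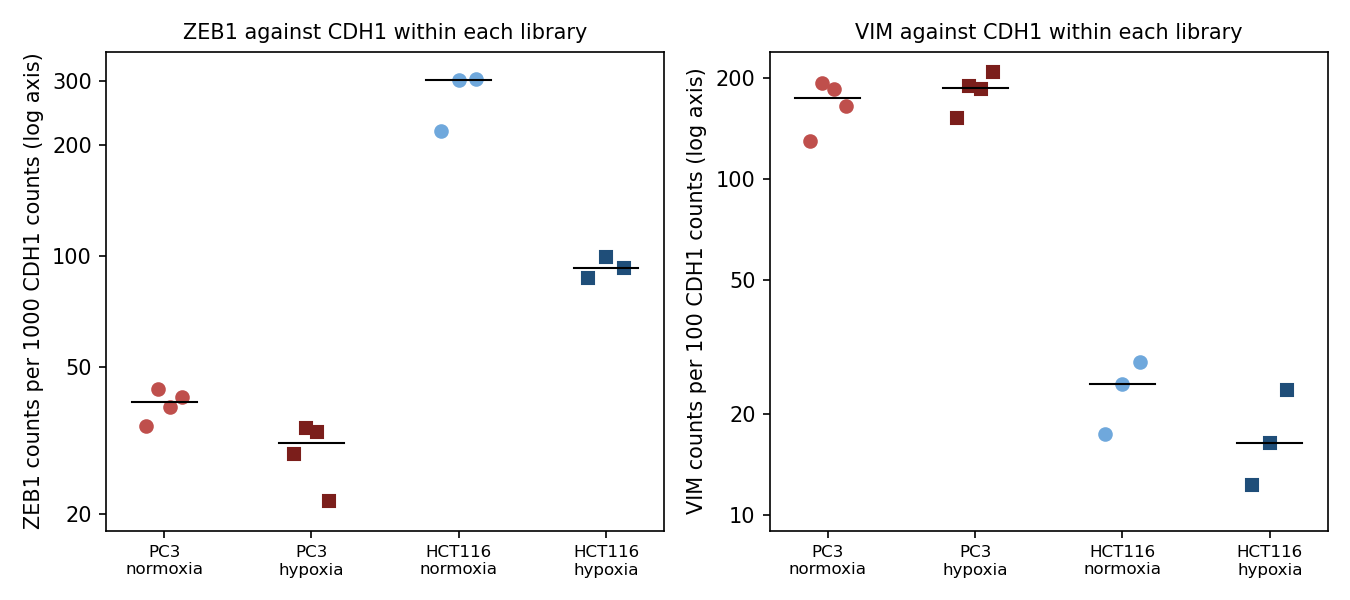
Counts of ZEB1 per 1000 counts of CDH1 (left) and of VIM per 100 counts of CDH1 (right) in each library on log axes, with lines at the group medians. The ZEB1 ratio is lower in hypoxia without overlap in both lines (medians 40.2 and 31.2 in PC3, 301 and 93.1 in HCT116), and the VIM ratio overlaps.

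The catenins tie cadherins to actin. CTNNA1, which encodes alpha-catenin, was close to absent in PC3, with 4 to 7 counts per normoxic library and 1 to 4 per hypoxic one, while HCT116 averaged 383 ± 15.4 CPM in normoxia (SD, n = 3). The summed ratio of PC3 to HCT116 was 0.00011 (counting interval 6.72e-05 to 0.00017). PC3 therefore held high CDH1 and CDH2 transcript with almost no transcript of the catenin that anchors both. CTNNB1, which encodes beta-catenin, was lower in PC3 (369 against 501 CPM, log2 -0.46, adjusted p = 9.71e-05), and CTNND1, which encodes p120-catenin, was higher (406 against 227 CPM, log2 0.82, adjusted p = 4.70e-06). In hypoxia CTNNA1 rose in HCT116 to 447 CPM (log2 0.24, SE 0.06, adjusted p = 0.0184), a call lost in 2 of 6 fits with 1 library left out. CTNNB1 (0.24, adjusted p = 0.0544) and CTNND1 (0.16, 0.0991) did not pass in HCT116, nor did they in PC3 (0.12, 0.317 and 0.07, 0.629). The responses of the 3 catenins were not shown to differ between the lines (log2 difference -0.33 with adjusted p = 0.822 for CTNNA1, -0.11 with 0.724 for CTNNB1 and -0.08 with 0.779 for CTNND1).

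The markers were set beside 91 further genes of the same biology in 7 lists. Between the lines in normoxia 42.9% of all genes were higher in PC3 and 40.5% lower, the background for the counts that follow. Of the list genes tested, 7 passed the filter on low counts through PC3 alone and CTNNA1 through HCT116 alone, so these had to differ. Of 13 tight junction and polarity genes, 9 were higher in PC3 and 1 lower, with CLDN1 at 190 CPM in PC3 and 0.0394 CPM in HCT116, which is 1 of the 7. Of 10 keratin and surface genes 6 were higher and 1 lower, KRT7 at 1182 against 10.7 CPM and KRT8 at 1343 against 1966 CPM. Of 10 regulators that maintain the epithelial state, 9 were higher and none was lower (also none at an unadjusted p under 0.05 or by DESeq2), among them GRHL2 (log2 2.84), OVOL2 (4.08) and the splicing factor ESRP1 (1.63). The adherens junction and desmosome list was divided, with 5 higher (PKP3, CTNND1 and DSP among them) and 4 lower (DSG2 at log2 -1.54 and DSC2 at -1.14 besides CTNNA1 and CTNNB1).

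Of 19 matrix and cytoskeleton genes 13 were higher, 4 of them (COL3A1, COL5A1, TNC and CDH11) among the 7 that had to differ. Examples were TNC (299 against 0.0382 CPM), CDH11 (186 against 0.0537 CPM) and THBS1 (2689 against 21.4 CPM). In this list 4 were lower, among them S100A4 (4.69 against 119 CPM) and ACTA2. Of 8 other transcription factors of the transition, 4 were higher and 3 lower, and 2 of the 4, TCF4 and LEF1, had to differ. TCF4 averaged 12.7 CPM in PC3 and had no count in normoxic HCT116, which puts it at least 566-fold higher against a floor of 3 counts per library. Of 13 genes of TGF-beta signalling 8 were higher and 4 lower, with the ligand TGFB2 at 595 against 1.05 CPM and SMAD4 at 19.0 against 77.2 CPM. In all, 54 of 83 genes tested were higher in PC3 and 17 lower.

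In hypoxia some regulators of the epithelial state were called as CDH1 was, and the counts below stand beside 6.03% of all genes higher and 5.29% lower in PC3, and 14.6% and 11.3% in HCT116. In PC3 5 of 10 regulators rose and none fell (2 were lower at an unadjusted p under 0.05, none by DESeq2), and with the replicate block 5 were higher and 2 lower. Of these, ELF3 (log2 0.96, SE 0.11), KLF4 (0.85, SE 0.08) and OVOL1 (0.57, SE 0.11) were the largest. In HCT116 4 of 10 rose and 1 fell, led by the same 3 genes, ELF3 at 1.55 (SE 0.17), KLF4 at 0.60 (SE 0.08) and OVOL1 at 0.46 (SE 0.09), while GRHL1 fell by 0.52 (SE 0.12). ELF3 and KLF4 encode factors active in epithelial differentiation, and OVOL1 a repressor known to act against ZEB1, which was not tested here. In PC3, OVOL2 (13.2 to 10.7 CPM), GRHL1 (15.5 to 13.2 CPM) and GRHL2 (95.4 to 86.1 CPM) were lower on average but short of the threshold. OVOL2 was also lower on average in HCT116 (0.765 to 0.579 CPM), again short of it. Keratin and surface genes rose in 6 of 10 cases in HCT116 (KRT19 from 795 to 1075 CPM, PRSS8 and MUC1 among them, the last lost in every fit with 1 library left out), and 1 fell. In PC3 none of these 10 passed in either direction, with 5 higher and 0 lower at an unadjusted p under 0.05, 4 higher by DESeq2 and 7 higher with the replicate block. Of the adherens junction and desmosome genes, 6 of 10 rose in HCT116 (PKP3, DSP and CDH3 by 0.39 to 0.43) and PKP2 fell by 0.32. In PC3, 2 of 9 rose, PKP2 by 0.62 and DSC2 by 0.34 (a call that held in 2 of 8 fits with 1 library left out), and none fell (none at an unadjusted p under 0.05 or by DESeq2). Of the tight junction genes 1 of 13 rose in PC3, and in HCT116 2 of 12 rose (CRB3 by 0.48) and 1 fell (CGN by 0.37).

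Some mesenchymal genes rose in hypoxia as well. In PC3 3 of 19 matrix and cytoskeleton genes rose, namely ITGA5 (28.6 to 79.6 CPM), which encodes a fibronectin receptor subunit, S100A4 (4.69 to 8.43 CPM) and COL6A1 (656 to 820 CPM, a call that held in 4 of 8 fits with 1 library left out). In HCT116 3 of 15 rose, among them ITGA5 (57.7 to 88.7 CPM) and CD44 (379 to 464 CPM). None of this list fell in either line, although 1 PC3 gene was lower at an unadjusted p under 0.05 and by DESeq2, and none in HCT116. The other transcription factors gave 0 calls of 8 in PC3 (3 higher and 0 lower at an unadjusted p under 0.05, 3 higher by DESeq2, 5 higher with the block) and 2 rises of 7 in HCT116, SOX4 by 0.37 among them. Of TGF-beta signalling, 3 of 13 rose in PC3 (TGFB1 by 0.69, SMAD3 by 0.36 and SMAD4 by 0.31), where SMAD4 held in 2 of 8 fits with 1 library left out and the block gave 10 higher and 1 lower. In HCT116 4 of 13 rose (SMAD7 by 0.94, TGFBR1 by 0.42 and BAMBI by 0.40), where SMAD7 held in 3 of 6 such fits. Over the 7 lists 14 of 82 genes tested rose and 0 fell in PC3, where 5 were lower at an unadjusted p under 0.05 and 2 by DESeq2. With the replicate block the PC3 numbers were 41 and 6, where 14.9% of all genes were higher and 13.6% lower. In HCT116 27 of 77 rose and 4 fell. The median log2 fold changes over the lists were 0.21 and 0.18.

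For the genes at 1 CPM or more in both lines, the 3 genes whose log2 CPM, centred within each line, followed each marker most closely over the 14 libraries are given as a description. The libraries share their oxygen conditions, so genes that respond alike score highly. Nearest to CDH1 among 11199 genes were QSOX1 (Pearson r 0.985), BTG1 (0.983) and BSPRY (0.982). All 3 were higher in hypoxia in both lines, by 0.45 to 0.52 in PC3 and by 1.06 to 1.36 in HCT116 on the log2 scale. Nearest to ZEB1 were ZFYVE16 (0.959), SESTD1 (0.938) and ACAP2 (0.925), with differences of -0.50, -0.23 and -0.30 in HCT116. Nearest to FN1 were MRC2 (0.928), HSPA2 (0.92) and LAMC1 (0.891), and nearest to VIM were TGM2 (0.9), PCOLCE (0.884) and DNASE1L1 (0.878). EPCAM went most closely with ARHGDIB (0.913), SNAI1 with LIPE (0.936) and TWIST1 with TRIQK (0.795). ZNF207 (0.89) and C15orf61 (0.883) came next for EPCAM, PDE12 (0.933) and OXA1L (0.923) for SNAI1, and ZFYVE21 (0.786) and FCHO2 (0.779) for TWIST1.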

How the data were processed

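PC3 and HCT116 cells were measured by polyadenylated RNA-seq in normoxia and hypoxia, as 4 and 3 biological replicates per condition. The authors aligned reads with HISAT2 (2.05) to the ERCC spike-ins and then to GRCh37, counted reads within RefSeq genes with HTSeq (0.5.4p3, intersection-strict) and deposited raw counts per gene and library. The strand setting and RefSeq release are not given in the sources used here. VIM, ZEB1 and ZEB2 share 656, 396 and 1299 exon bases with antisense genes, and VIM shares 619 with another. CDH1, CDH2, SNAI2 and TWIST1 share 347, 307, 121 and 141 exon bases with such genes. Reads of antisense genes cannot be told apart from those of the markers without strand. ZEB2 also shares 2966 exon bases with a gene on its own strand. ERCC counts are not used here, so a change of total mRNA would not show.

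The counts were tested with edgeR (4.0.16, R 4.3.3) after filterByExpr and TMM scaling, by the two-sided quasi-likelihood test with Benjamini-Hochberg adjustment over all genes tested and a threshold of 0.05. Standard errors were derived from log2 fold change and F, and intervals of 95% use the t quantile of the fit's degrees of freedom. Ratios at low counts carry exact counting intervals. CPM per kb used exon lengths of the GRCh37 annotation. The alternatives were 3 other scalings, DESeq2 (1.42.0), 2 other filters, one fit over all libraries, the replicate number as a block and each library left out in turn. Leaving out both PC3 libraries of replicate 1 was chosen after seeing the data. On simulated counts with 200 genes changed by a fold of 2, the test recovered 83.5% of them in PC3 (of 14230 genes) and 90.5% in HCT116 (of 14040 genes). It recovered 78.5% between the lines in normoxia and only 66.5% in the difference between lines, and smaller changes were not simulated. It made 18 false calls in PC3 (beside 167 genes recovered), 13 in HCT116 and 4 in the difference between lines. DESeq2 made more, at 56, 28 and 11.

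The replicate numbers, taken from the sample titles, were used to pair the PC3 libraries. The 2 conditions' libraries of each number deviated together from their group means, with correlations over genes of 0.672, 0.265, 0.137 and 0.279. Pairing was weakest for replicate 3, where hypoxia replicate 3 reached 0.134 with normoxia replicate 2. Normoxia replicate 4 and hypoxia replicate 2 reached 0.195. No library was a repeat of another (chi-square of 12.5 to 268 per gene between replicates). All 10 markers and the 3 catenins are named in every comparison. From each list, up to 3 genes each way are named among those called, averaging 1 CPM or more and not overlapping between groups, and 3 most alike genes per marker. The markers and the lists were chosen with earlier results of these data known. Some genes that the naming rule covers are not reported here.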

Additional observations from a re-analysis of the deposited data

Results flagged for a closer look

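The difference of the hypoxia response between PC3 and HCT116 passed its own test (edgeR, interaction of line and oxygen) for 4 of the 83 genes of the pathway lists tested, and for none of the 10 markers, where 2.32% of 15493 genes passed. The 4 fell to as few as 1 with 1 library left out. PKP2, which encodes a desmosomal plaque protein, rose in PC3 from 50.5 to 77.3 CPM and fell in HCT116 from 45.8 to 36.2 CPM, a difference of 0.95 on the log2 scale (SE 0.11, adjusted p = 2.68e-04) that held in 14 of 14 fits with 1 library left out. EHF, an epithelial ETS factor, rose in PC3 from 124 to 178 CPM and stood at 49.3 and 46.2 CPM in HCT116, a difference of 0.61 (SE 0.13, adjusted p = 0.0226) that held in 11 of 14. ITGA5, a fibronectin receptor subunit, rose in both lines and more in PC3, a difference of 0.86 (SE 0.19, adjusted p = 0.0302) that held in 5 of 14. TGFB1, the ligand, rose in PC3 from 92.2 to 148 CPM and stood at 70.9 and 78.2 CPM in HCT116, a difference of 0.54 (SE 0.13, adjusted p = 0.0458) that held in 3 of 14. No PC3 library lay far from the other 3 by Dixon's criterion in 22 groups, the 10 markers and the total counts in both conditions, where chance alone would give about 1.1. The list genes were not examined in this way. With 4 values per group the criterion flags only a wide gap, so it cannot show that no library was unusual. Hypoxia replicate 4 lay at the end of the first principal component of PC3 (score -51.9).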

How the results depend on the processing

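No called value changed direction under any alternative, and the comparison of the lines in normoxia kept the calls of all 10 markers. With the replicate block the markers called were 4 higher in PC3, 3 higher (VIM added, adjusted p = 0.0214) and 2 lower (SNAI1 added, 0.0402) in HCT116, and 1 higher and 1 lower in the difference between lines (CDH1 adjusted p = 0.0164, ZEB1 0.017). The HCT116 numbers were not shown to mark a shared origin. Libraries of the same number correlated at only 0.0912, 0.141 and 0.0412, although each went best with its own number. The block also moved the list genes to 41 higher and 6 lower in PC3 and to 4 lower in the difference, and all genes to 2125 and 1949 in PC3 and to 596 and 710 in the difference. One fit over all libraries gave 1 marker higher in PC3 (VIM lost, adjusted p = 0.0588) and 1 in HCT116 (FN1 lost, 0.0554), 23 and 2 list genes in PC3, 15 and 2 in HCT116, 1246 genes lower in PC3, and 938 and 795 genes in HCT116. DESeq2 gave 2 markers lower in HCT116 and 1 each way in the difference, 28 and 2 list genes in PC3, 7 and 1 in the difference, 1383 and 1185 genes in PC3, and 467 and 504 in the difference. Total-count scaling moved the median log2 value of all genes to -0.10 in PC3 and 0.13 between the lines. It gave 3 markers lower in HCT116 (EPCAM, SNAI1 and ZEB1), 3 list genes lower in PC3 and 7 in HCT116, 562 and 1733 genes in PC3, and 1286 and 3146 in HCT116. Median-of-ratios scaling gave 2 markers lower in HCT116, and upper-quartile scaling and a minimum of 10 counts in every library each gave 1 lower in the difference (CDH1, 0.0423 and 0.0451). Upper-quartile scaling also gave 1 list gene lower in PC3. Without both PC3 libraries of replicate 1 the list genes were 24 higher and 1 lower. The causes were not tested.

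With each library left out in turn, markers higher and lower ranged from 0 to 3 and stayed at 0 in PC3, from 1 to 3 and 1 to 2 in HCT116, and from 0 to 1 each in the difference. List genes ranged from 8 to 20 and 0 to 1 in PC3, 19 to 28 and 3 to 5 in HCT116, 1 to 4 and 0 to 1 in the difference, and 52 to 53 and 16 to 20 between the lines. All genes ranged from 364 to 1143 and 189 to 942 in PC3, and from 78 to 294 and 94 to 423 in the difference. Low counts limit CDH2, ZEB2 and SNAI2 in HCT116, although its libraries held the highest totals. CDH2 and ZEB2 lay at or near the floor of 3 counts in normoxia and reached at most 18 and 8 counts in hypoxia. SNAI2 held 10 to 15 counts in normoxia and 6 to 23 in hypoxia.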
